A study of Mus musculus with 6 samples.

Results

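The genes for the proteins of the cytosolic ribosome were compared in hearts of dystrophic mice given setanaxib or vehicle. They were chosen by symbol: every row named Rpl, Rps or Rplp with a number, with or without a closing letter or paralog mark, without the -ps pseudogenes and without the Rps6k kinases. This gave 88 genes of 50385 in the count table, 53 of the large subunit and 35 of the small. Of the 88, 76 are the core genes of the ribosome, and 12 are paralogs or copies with symbols of the same form. All 6 libraries came from hearts of male Mdx/Utrn dKO mice, which carry mutations of dystrophin (Mdx) and of its homologue utrophin (Utrn), and no healthy mice were among them. In 3 libraries the mice had been given setanaxib, which inhibits the reactive-oxygen-producing enzyme Nox4, at 60 mg/kg/day by oral gavage for 12 weeks, starting at 2 to 3 months of age. In the other 3 they had been given corn oil, the vehicle, in the same way. The labels do not state in words that each library is a separate animal, so the p-values below measure the spread between these libraries. In whole heart tissue, fewer cells of a type and less RNA per cell cannot be told apart.

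A ribosome is built from ribosomal RNA and, for most core proteins, a single copy of each, and the genes of the small subunit (Rps) and of the large subunit (Rpl, with the stalk proteins Rplp) are largely expressed in step. Most of their mRNAs begin with a run of pyrimidines, the TOP motif, through which the kinase mTORC1 and the RNA-binding protein Larp1 set how much they are translated. A few members have paralogs that enter the ribosome in certain tissues, of which Rpl3l, the form of striated muscle that takes the place of Rpl3, is the best known in the heart. Because these mRNAs are also regulated in translation, their levels describe only part of ribosome supply.

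The libraries held 110803307 to 154003318 estimated counts each. Values are counts per 1000000 (CPM) after scaling by the trimmed mean of M-values (TMM), and differences are log2 fold changes of setanaxib over vehicle with their standard error (SE). Setanaxib replicate 3 stood apart from the rest. Its summed level of the 4 atrial myocyte markers in the table (of 6 listed, Sln and Bmp10 having no row) was 3129 CPM, against 68.8 to 589 in the other libraries. The 6 lung epithelium markers, with Cldn18 at 0 in all libraries, summed to 606 CPM against 0 to 19.8, and the 6 adipocyte markers to 73.9 against 0 to 2.58. Its 10 cardiomyocyte markers summed to 69069 CPM, against 87627 to 96747 in the other 5 libraries, and all 10 were among the genes tested, as the label of heart tissue asks. Dmd was counted at 108 to 178 CPM and Utrn at 60.8 to 106 CPM. Counts over a whole gene do not show whether its mutated allele gives protein, so these do not check the genotype.

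No change of the ribosomal protein genes with setanaxib was detected. No member passed an adjusted p of 0.05 by edgeR's quasi-likelihood test with Benjamini-Hochberg adjustment over all 20472 genes tested (0 of 86 members tested), against a background of 0.00488%, which is 1 gene. At an unadjusted p under 0.05 there was 1 member, Rps7, or 1.16% of the members, while 8.46% of all genes tested lay there (4.69% lower and 3.76% higher with setanaxib). DESeq2 called 0 members and 505 genes in all, 2.31% of those with an adjusted p, and limma-voom called 0 genes in all. Each of these tools also had 1 member at an unadjusted p under 0.05. The groups did not overlap in CPM for 3 members, Rps7 and Rpl22 below vehicle and Rps4x above, or 3.49% of the members. Over all genes tested 17.6% had groups that did not overlap, 9.46% lower and 8.11% higher with setanaxib. Without setanaxib replicate 3, which stood apart, 0 members were called and 3 were at an unadjusted p under 0.05 (Rps7, Rpl3 and Rpl3l), 3.49% of the members against 13.6% of the genes tested in that fit.

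The differences were small in size as well as uncalled. Of the 86 members, 48 had a positive and 38 a negative log2 fold change, with a median of 0.01, and the median over all genes tested was also 0.01. Scaling by total counts alone gave 60 positive and 26 negative, with a median of 0.04 for the members and 0.04 for all genes. Without setanaxib replicate 3 there were 65 positive and 21 negative, with a median of 0.05 for the members and -0.0042 for all genes. The median size of the difference, regardless of sign, was 0.04 log2 units for the members, against 0.20 for all genes tested and 0.14 for the 10288 genes tested within the range of log2 CPM that the core genes span. For 72 of 86 members the log2 fold change lay within 0.1 of zero. The 95% interval lay inside a 1.5-fold change in either direction for 82 of 86 members (95.3%), against 33.5% of all genes tested. It did so for 6301 of the 10288 genes within the core genes' range of log2 CPM. The exceptions among the members were Rps7, Rpl3l and the low copies Rps3a3 and Rpl32l. The bounds of 0.1 and 1.5-fold were set after the values were seen. The median log2 fold change was 0.00 for the 52 large subunit genes tested and 0.03 for the 34 of the small subunit.

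**Figure D1:**
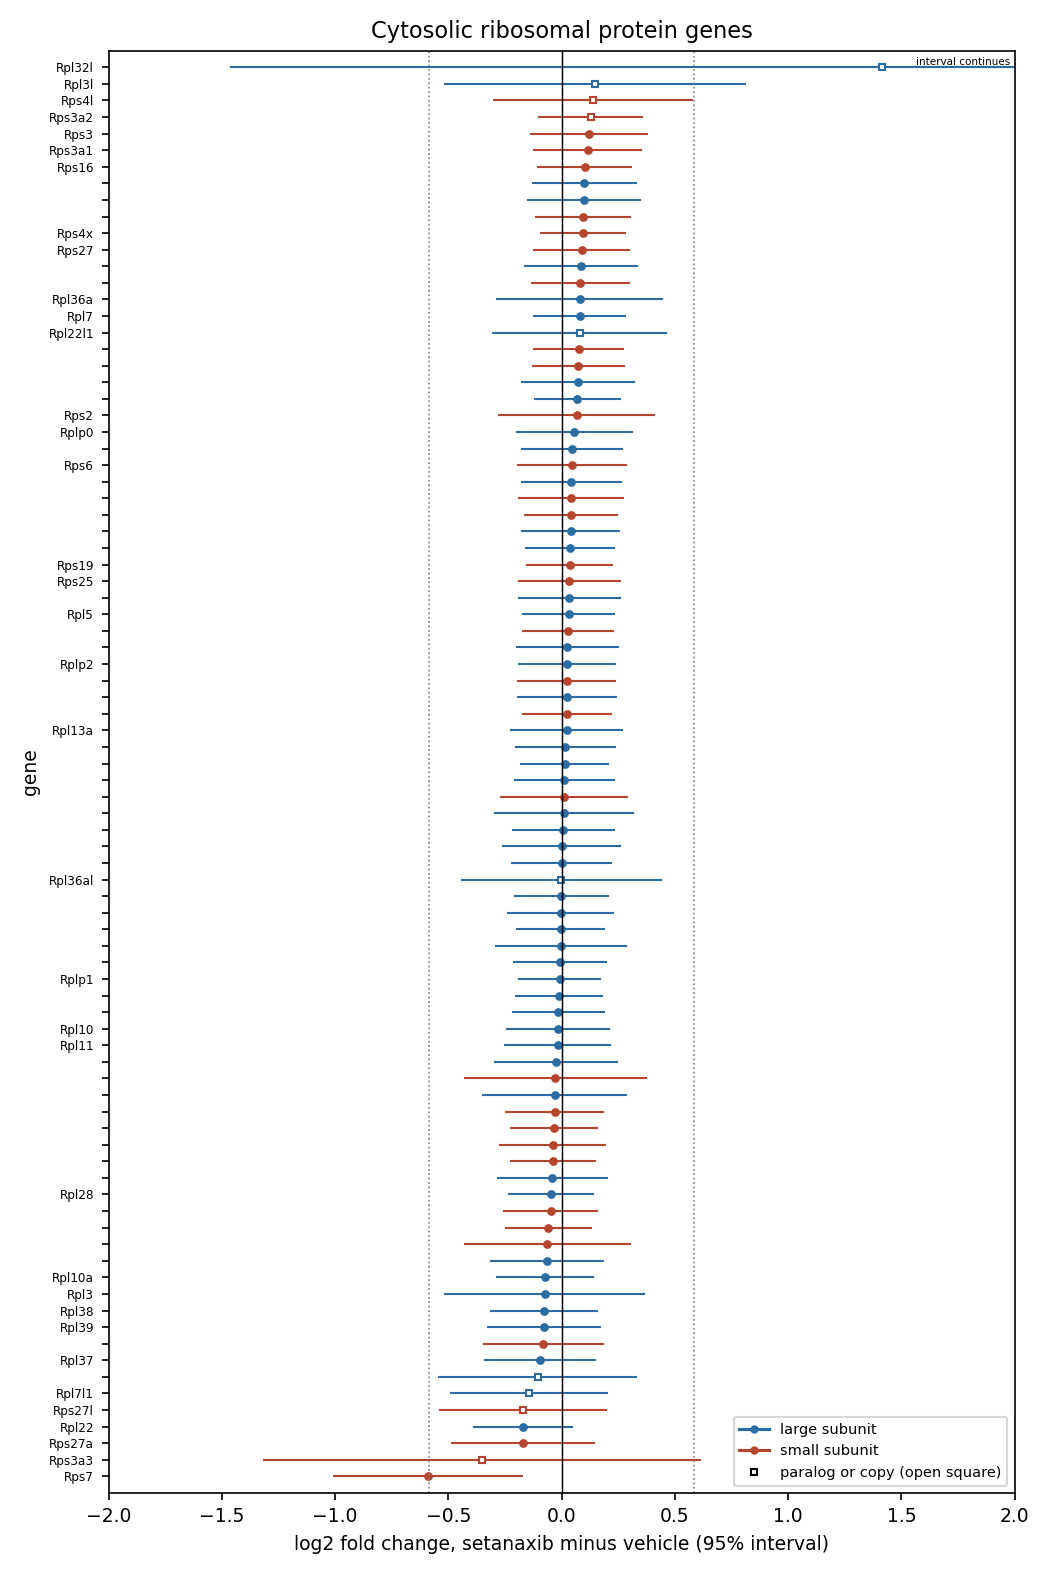
The 86 ribosomal protein genes tested, ordered by log2 fold change of setanaxib over vehicle (x axis), with 95% intervals from the edgeR fit of 3 against 3 libraries; filled circles are core genes, open squares paralogs or copies, dotted lines mark a 1.5-fold change, and names are given for genes described in the text. For 82 of the 86 the interval lies between the dotted lines, and Rps7 stands at the low end at -0.59.

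Many core genes had their highest and lowest values in the same libraries. For 34 of the 76 core genes the highest CPM was in vehicle replicate 2, and for 33 it was in setanaxib replicate 1. The lowest CPM was in setanaxib replicate 3 for 27 core genes, and in vehicle replicates 1 and 3 for 20 each. On the log2(CPM + 0.5) scale, the median core gene lay 0.07 above its own mean in vehicle replicate 2 and 0.07 above it in setanaxib replicate 1. It lay 0.05 below its mean in vehicle replicate 1 and 0.05 below in setanaxib replicate 3. The high and the low libraries therefore came from either group. The standard deviation (SD) over the 6 libraries on this scale had a median of 0.083 over the core genes, against 0.189 over the 10466 genes with at least the mean CPM of the lowest core gene. It was under 0.15, a bound set after the values were seen, in 69 of the 76. The least variable was Rplp1 at 0.017 and the most variable Rps7 at 0.388, followed by Rpl3 at 0.231, Rps15a at 0.203 and Rps13 at 0.189.

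**Figure D2:**
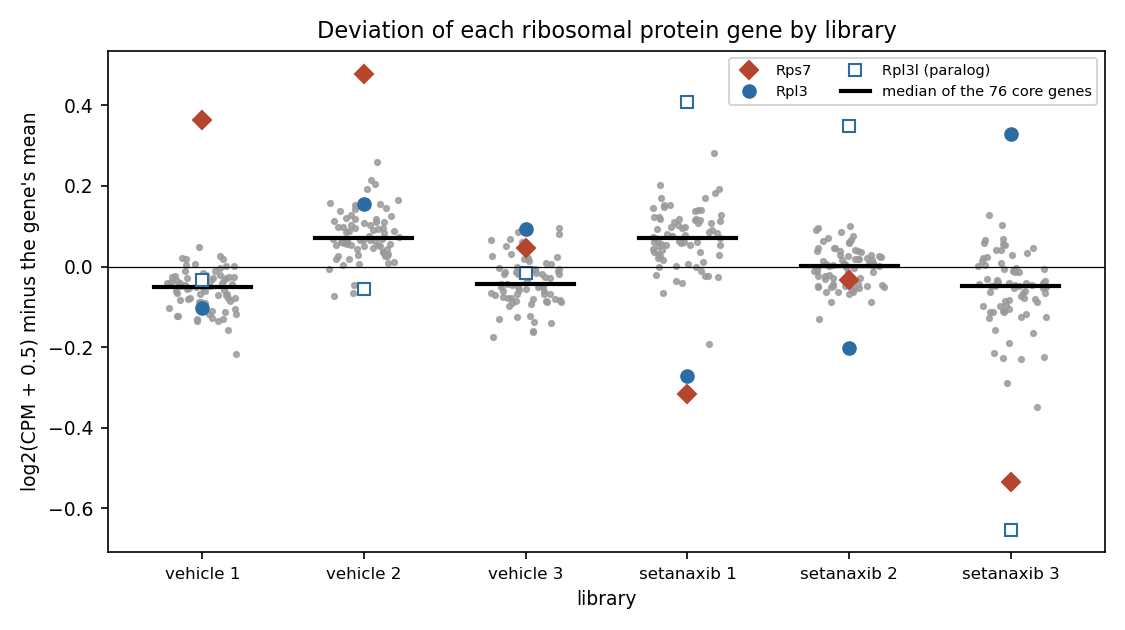
Log2(CPM + 0.5) of each of the 76 core ribosomal protein genes minus that gene's mean over the 6 libraries (y axis), by library (x axis); grey points are core genes, black bars their median, and Rps7, Rpl3 and the paralog Rpl3l are marked. Most grey points lie close to their median in every library, with some, such as Rps13 and Rps15a, further below it in setanaxib replicate 3. Rps7 lies high in vehicle replicates 1 and 2 and low in setanaxib replicates 1 and 3, and Rpl3l lies lowest in setanaxib replicate 3.

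As a share of all estimated counts, the 88 genes summed to 0.686, 0.713 and 0.704% in vehicle replicates 1 to 3 and to 0.662, 0.680 and 0.808% in setanaxib replicates 1 to 3. The highest share was that of setanaxib replicate 3, and the other setanaxib libraries lay below all vehicle libraries. Among the setanaxib libraries the share taken by the mitochondrial genome ran the other way. It was lowest in setanaxib replicate 3 at 20.5% and highest in setanaxib replicate 1 at 30.0%, with 23.5 to 26.8% in the other libraries. Among the vehicle libraries both shares were highest in replicate 2. Without the mitochondrial genome, the members' shares were 0.927, 0.974 and 0.920% with vehicle and 0.946, 0.913 and 1.02% with setanaxib, and the groups overlapped. After TMM scaling the summed levels were 6841, 7519 and 6832 CPM with vehicle and 7432, 7074 and 6791 CPM with setanaxib. The group means were 7064 ± 394 and 7099 ± 321 CPM (SD, n = 3 libraries each), so they differed by less than the spread within a group.

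The stalk of the large subunit, through which elongation factors reach the ribosome, is formed by Rplp0 and dimers of Rplp1 and Rplp2. Rplp0 stood at 396, 466 and 404 CPM with vehicle and 463, 438 and 415 CPM with setanaxib, with a log2 fold change of 0.06 (SE 0.10). Rplp1 was at 177, 182 and 177 CPM with vehicle and 175, 179 and 178 CPM with setanaxib, the steadiest of the core genes. Rplp2 was at 50.8, 58.0 and 50.3 against 54.2, 53.6 and 53.9 CPM. In each of these genes the groups overlapped, and the lowest edgeR adjusted p was 0.932, for Rplp0.

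Among the members with the highest mean CPM were Rplp0, Rps2, Rpl28 and Rplp1. Rps2, which lines the entry of the mRNA channel, stood at 371, 428 and 355 CPM with vehicle and 450, 420 and 337 CPM with setanaxib. Its highest and its lowest library were both setanaxib libraries. Rpl28 was at 179, 183 and 173 CPM with vehicle, against 175, 172 and 170 CPM with setanaxib, with a log2 fold change of -0.05 (SE 0.08). Levels of different genes are comparable only per transcript length. Per kilobase, with lengths from the GENCODE annotation, the core genes ran from Rps2 at a mean of 360 CPM per kilobase, Rplp1 at 357 and Rplp0 at 317 to Rps15a at 7.19 CPM per kilobase. The range over libraries of Rps2 (308 to 412) overlapped those of Rplp1 (352 to 364) and Rplp0 (291 to 344), so Rps2 is not apart from either beyond its spread. The ranges of Rplp1 and Rplp0 did not overlap. Rps15, next at 247, ranged from 234 to 258. The low end also held Rpl18 at 8.69 and Rpl36a at 9.01 CPM per kilobase. The length used is that of the annotation's principal transcript, the longest where several qualify, which lowers the value of a gene expressed in a shorter form.

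Rps7, a small subunit protein that is also a known binding partner of the ubiquitin ligase Mdm2, showed the largest difference of the core genes. It stood at 201, 218 and 161 CPM with vehicle (193 ± 29.2, SD, n = 3), against 125.4, 153 and 108 CPM with setanaxib (129 ± 22.6, SD, n = 3). Every setanaxib library lay below every vehicle library. The log2 fold change was -0.59 (SE 0.17, 95% interval -1.01 to -0.17), with an unadjusted p of 0.0129 and an adjusted p of 0.451 by edgeR, so the difference did not pass the test. The adjusted p was 0.0613 by DESeq2 and 0.395 by limma-voom, and ranged from 0.0613 to 0.994 over the alternatives. Leaving out 1 library at a time moved the log2 fold change between -0.73 and -0.47, the value without setanaxib replicate 3. As a percentage of the summed counts of the other core genes, which needs no scaling between libraries, Rps7 made up 3.08, 3.04 and 2.46% with vehicle and 1.75, 2.25 and 1.64% with setanaxib. The exact two-sided permutation p of that difference was 0.1, the smallest that 3 against 3 libraries can give.

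Values of Rps7 are uncertain in 1 respect: 55.9% of the 100-base windows of its transcript occur unchanged in at least 1 of 6 other genes. Those 6 together held 2.47 to 3.29 CPM with vehicle and 2.005 to 2.64 CPM with setanaxib. Summed with them, an alternative added after the data were seen, Rps7 had a log2 ratio of group means of -0.58, against -0.59 alone. Macrophage markers had values in the same direction as Rps7: 9 of the 10 were lower with setanaxib, 8 of them at an unadjusted p under 0.05 and none called, none was at 0 in all libraries, and they summed to 342 to 438 CPM with vehicle and 219 to 276 CPM with setanaxib. Of the 8 fibroblast markers, 7 were lower with setanaxib, 4 of them at an unadjusted p under 0.05, and their sum of 1636 to 2321 CPM with vehicle overlapped that of 1386 to 2593 CPM with setanaxib. Over all genes tested, 4.69% were lower with setanaxib at an unadjusted p under 0.05. The part of macrophages and fibroblasts in the difference of Rps7 was not tested.

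Rpl22 and Rps4x were the other members whose groups did not overlap. Rpl22, an RNA-binding protein of the large subunit, stood at 30.4, 33.1 and 32.1 CPM with vehicle, against 26.2, 29.5 and 29.2 CPM with setanaxib. Its log2 fold change was -0.17 (SE 0.09) with an edgeR adjusted p of 0.682, and no 100-base window of its transcript was shared with another gene. Rps4x, the X-linked form of the small subunit protein Rps4, stood at 81.8, 89.6 and 84.4 CPM with vehicle, against 90.4, 90.3 and 92.3 CPM with setanaxib. Its log2 fold change was 0.09 (SE 0.08) with an edgeR adjusted p of 0.812. In both genes the gap between the groups was under 1 CPM.

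**Figure D3:**
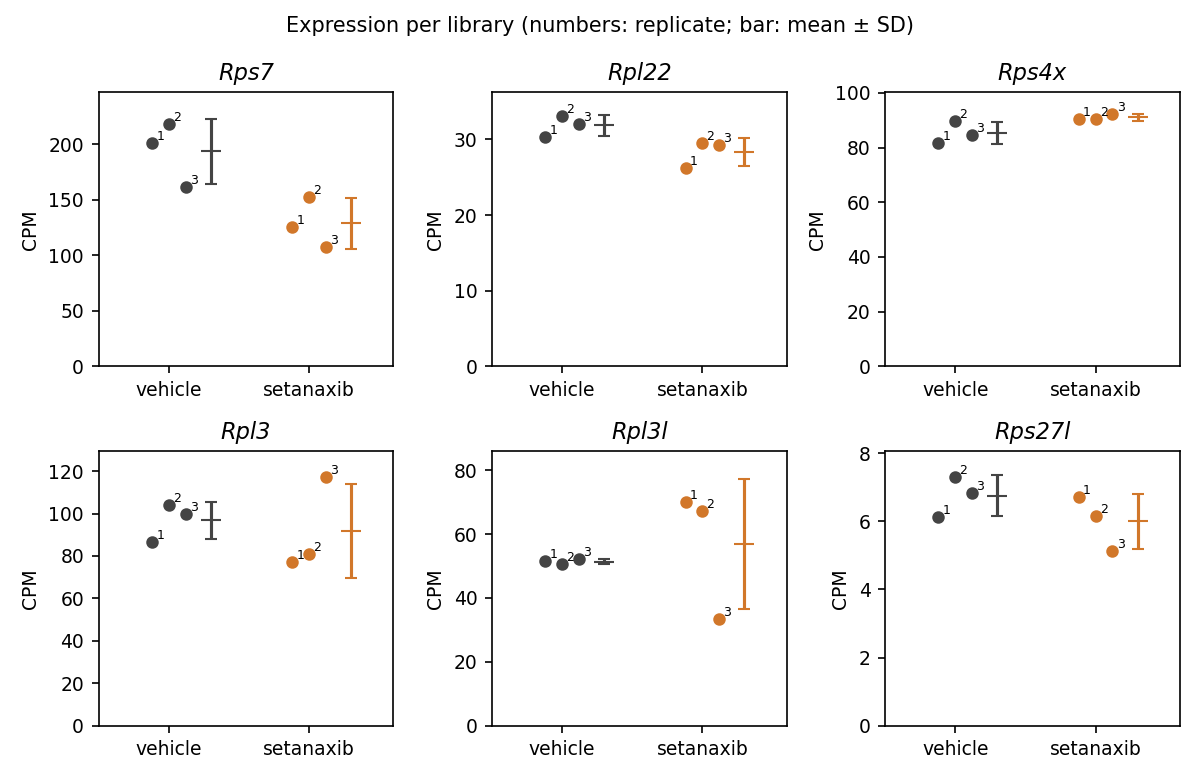
CPM (y axis, from 0) of 6 ribosomal protein genes in each library, by group (x axis); points are libraries numbered by replicate and bars give the mean ± SD of 3. Rps7 and Rpl22 lie lower and Rps4x higher in all setanaxib libraries, and in Rpl3 and Rpl3l setanaxib replicate 3 lies on the other side of the vehicle libraries from setanaxib replicates 1 and 2.

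In the remaining members with the smallest p-values the groups overlapped. Among those with negative values, Rps27a, made as a fusion with ubiquitin, stood at 13.2, 16.2 and 13.6 CPM with vehicle and 13.2, 13.6 and 11.4 CPM with setanaxib. Rpl37 was at 14.97, 17.8 and 17.0 against 15.6, 15.4 and 15.6 CPM. Rps27l and Rpl7l1, paralogs described below, completed that side. With positive values were Rps16 at 54.7, 60.2 and 53.1 against 62.0, 58.0 and 60.2 CPM, and Rps3a1 at 147, 159 and 136 against 170, 153 and 155 CPM. Rps3a2, a processed copy, and Rps3 and Rpl32l, given below, were the others. Their edgeR adjusted p-values lay between 0.780 and 0.863.

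Rpl3 and Rpl3l are shown as sequences because the results of this pair rest on telling the 2 apart. Rpl3 sits near the peptidyl transferase centre of the large subunit, and Rpl3l replaces it in heart and skeletal muscle. The stretches are the 90 bases of coding sequence with the most differences, bases 856 to 945 in each gene in GENCODE on GRCm38, and they differ at 34 bases, printed in capitals.
Rpl3: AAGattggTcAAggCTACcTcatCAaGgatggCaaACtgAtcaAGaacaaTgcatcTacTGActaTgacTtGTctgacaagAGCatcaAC
Rpl3l: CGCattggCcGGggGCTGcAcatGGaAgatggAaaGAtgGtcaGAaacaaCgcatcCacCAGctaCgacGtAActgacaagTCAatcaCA
Over the whole coding sequences 73.1% of aligned bases were identical, and the longest run shared by both was 22 bases. No 100-base window of the Rpl3l transcript occurred in another gene. Of the windows of Rpl3, 79.4% occurred in at least 1 of 7 other genes, of which 5 have rows in the table.

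Rpl3l was higher in some setanaxib libraries and lower in another. It stood at 51.4, 50.7 and 52.1 CPM with vehicle, an SD of 0.708 CPM, and at 70.1, 67.2 and 33.3 CPM with setanaxib, an SD of 20.5 CPM. Setanaxib replicates 1 and 2 lay above all vehicle libraries and setanaxib replicate 3 below all of them. Rpl3 ran the other way, at 86.8, 104 and 99.6 CPM with vehicle and 77.2, 81.0 and 117 CPM with setanaxib. The log2 fold changes were 0.15 (SE 0.27) for Rpl3l and -0.08 (SE 0.18) for Rpl3, with edgeR adjusted p-values of 0.931 and 0.949. Without setanaxib replicate 3 they were 0.42 for Rpl3l and -0.29 for Rpl3, with edgeR adjusted p-values of 0.141 and 0.324, so neither passed the test. Over all alternatives the adjusted p ranged from 0.141 to 1.0 for Rpl3l and from 0.324 to 1.0 for Rpl3. Without setanaxib replicate 1 the signs were the opposite, at -0.04 for Rpl3l and 0.03 for Rpl3.

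Rpl3l made up 37.2, 32.8 and 34.3% of the summed counts of Rpl3 and Rpl3l with vehicle (34.8 ± 2.26, SD, n = 3), and 47.6, 45.4 and 22.1% with setanaxib (38.4 ± 14.1, SD, n = 3). The difference was 3.58 percentage points, with an exact two-sided permutation p of 0.8. It ranged from -1.03 points without setanaxib replicate 1 to 11.7 points without setanaxib replicate 3. With the copies of Rpl3 added to Rpl3, an alternative added after the data were seen, the difference was 3.13 points (exact permutation p of 1.0). The shares were then 32.8, 31.5 and 32.8% with vehicle and 42.7, 42.5 and 21.3% with setanaxib. The copy Rpl3-ps1, picked out after its values were seen, took between 2.21 and 15.97% of the counts of Rpl3 and Rpl3-ps1, with the highest values in vehicle replicate 1 (15.5%) and setanaxib replicate 1. The copy's share of counts thus varied between libraries of the same group. Whether its counts come from reads of Rpl3 or from the copy itself was not tested.

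Another pair of muscle and general forms had its lowest share in the same library. Eef1a2, the muscle and nerve form of elongation factor 1 alpha, made up 57.0, 58.7 and 55.8% of the counts of Eef1a1 and Eef1a2 with vehicle, and 57.5, 59.4 and 34.0% with setanaxib. Setanaxib replicate 3 was the low library there as it was for Rpl3l, and setanaxib replicates 1 and 2 lay in the range of vehicle or just above. It is also the library with the high atrial, lung epithelium and adipocyte marker sums and the low cardiomyocyte sum given above. The part of the mixture of cells in the Rpl3l share was not tested.

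By counts, the other paralogs were minor parts of their pairs, except Rpl36al. These shares are not scaled by transcript length. Per kilobase, Rpl36al had a mean of 7.72 CPM and Rpl36a 9.01, so its larger share of counts does not hold per length. Rpl22l1 had a mean of 4.03 CPM per kilobase and Rpl22 14.7. Over the 6 pairs compared, exact two-sided permutation p-values were adjusted together. Rps27l, a paralog known as a target of the tumour suppressor Trp53, made up 9.41, 10.1 and 9.56% of the Rps27 and Rps27l counts with vehicle and 8.91, 8.19 and 7.56% with setanaxib. Rpl7l1, whose product takes part in making the large subunit, made up 11.8, 13.3 and 11.8% of its pair with Rpl7 with vehicle and 11.6, 10.6 and 10.002% with setanaxib. In these 2 pairs every setanaxib library lay below every vehicle library, with an exact permutation p of 0.1 each and 0.3 after adjustment. Rpl22l1 made up 6.92, 5.92 and 6.29% of its pair with Rpl22 with vehicle and 8.44, 6.84 and 7.23% with setanaxib, with an exact permutation p of 0.2 and 0.4 after adjustment. Rpl36al made up 67.7 to 72.0% of its pair with Rpl36a with vehicle and 64.0 to 72.6% with setanaxib. Rps4l, a transcribed processed pseudogene in the annotation, made up 8.11 to 10.03% of its pair with Rps4x with vehicle and 8.26 to 10.4% with setanaxib. Both of these had an adjusted permutation p of 0.8.

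**Figure D4:**
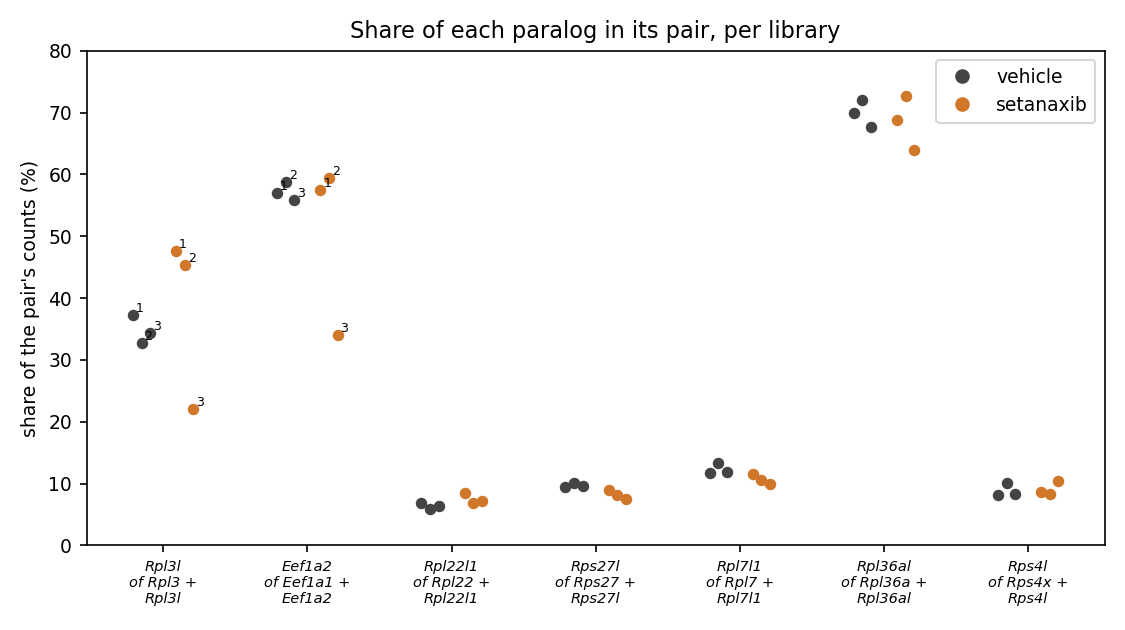
Share of each paralog in the summed counts of its pair (y axis, percent) for 6 ribosomal protein pairs and for Eef1a2 with Eef1a1 (x axis), 1 point per library, 3 libraries a group; numbers mark the replicates of the pairs where setanaxib replicate 3 lies apart. Rpl3l is at 22.1% and Eef1a2 at 34.0% in setanaxib replicate 3, each the lowest value of its pair.

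Rps27l in itself stood at 6.13, 7.32 and 6.82 CPM with vehicle and 6.73, 6.16 and 5.14 CPM with setanaxib, and Rps27 at 59.0 to 65.3 against 62.9 to 69.1 CPM. Rpl7l1 was at 16.005, 20.3 and 16.1 against 17.6, 15.7 and 14.1 CPM, and Rpl7 at 120 to 133 against 127 to 135 CPM. Rpl22l1 was at 2.08 to 2.26 against 2.17 to 2.41 CPM. Rpl36a was at 3.66 to 4.54 against 4.18 to 4.76 CPM, and Rpl36al at 8.49 to 11.5 against 7.97 to 11.1 CPM. Rps4l was at 7.22 to 9.99 against 8.13 to 10.7 CPM. The groups overlapped in all of these genes. Coding identity was 76.2% between Rps27 and Rps27l, 66.9% between Rpl22 and Rpl22l1, 52.7% between Rpl7 and Rpl7l1 and 87.7% between Rpl36a and Rpl36al.

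Members missing from the tests were the testis paralog Rpl39l and the copy Rps12l1, each listed at 0 in all 6 libraries. A count of 0 allows up to 3 counts, which is 0.0195 to 0.0271 CPM before TMM scaling, and covers counting error only. All 100-base windows of Rps12l1 occur in other genes, so its 0 also depends on how shared reads were assigned. None of the windows of Rpl39l do. Rpl39, its partner, stood at 14.2 to 15.6 CPM with vehicle and 13.3 to 15.3 CPM with setanaxib. Rpl10 was at 115 to 128 CPM with vehicle and 114 to 128 CPM with setanaxib, and its listed partner Rpl10l has no row in the table. The processed copy Rpl32l lay at 0 to 0.140 CPM with vehicle and 0.0913 to 0.266 CPM with setanaxib, too low for a stable fold change.

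The other members listed for known further roles had overlapping groups. Rpl5 and Rpl11, which bind Mdm2 when ribosome assembly fails, stood at 93.2 to 102 and 22.5 to 25.5 CPM with vehicle, and at 94.9 to 103 and 21.8 to 24.3 CPM with setanaxib. Rps6, the protein phosphorylated by S6 kinase downstream of mTORC1, was at 97.3, 112 and 97.0 against 113, 100 and 102 CPM. Rps19, the gene most often mutated in Diamond-Blackfan anaemia, was at 42.8 to 47.1 against 45.2 to 46.2 CPM. Rps3, which also acts in DNA repair, was at 97.3, 110 and 95.4 against 116, 98.8 and 115 CPM. Its log2 fold change of 0.12 (SE 0.11) was the highest of the core genes.

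Rpl13a, a part of a complex that silences translation of certain inflammatory mRNAs, stood at 50.2 to 60.1 CPM with vehicle and 51.4 to 58.0 CPM with setanaxib. Rpl38 and Rps25, linked to translation of selected mRNAs, were at 59.9 to 71.1 and 82.9 to 91.8 CPM with vehicle, and at 59.0 to 62.8 and 82.4 to 94.9 CPM with setanaxib. Rpl10a was at 94.3 to 109 against 93.3 to 98.1 CPM. The lowest edgeR adjusted p among these 9 genes was 0.818, for Rps3. Their log2 fold changes ran from -0.08 for Rpl38 to 0.12 for Rps3.

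Shared sequence limits the counts of many members. In the GENCODE transcripts, 34 of the 88 members had over 50% of their 100-base windows in another gene, and 8 had none. Leaving out those 34, also an alternative added after the data were seen, left 53 tested members with 30 positive and 23 negative log2 fold changes, a median of 0.02 and 0 called. In addition 29 members hold small nucleolar RNA genes within their bounds and 35 overlap another gene. The strand and the treatment of shared reads in the counting are not given in the sources used here, so reads of such partners cannot be told apart.

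Promoters are shown for Rplp0, the member with the highest CPM, Rpl28, the steadiest core gene after Rplp1, Rps7 and Rpl3l, so that the sequence can be read beside the levels. RefSeq promoters on GRCm38.p6 were matched by symbol for 63 of 88 members, with 75 entries, each from 250 bases before to 50 after a start. The stretches below run from 125 bases before to 25 after the start, 5′ to 3′ on the gene's strand, with capitals for matches, on either strand, to the motifs searched, which are spelled out with their shares after the sequences. They lie at chr5:115559342-115559491 on the plus strand (Rplp0), chr7:4792840-4792989 on the plus strand (Rpl28), chr12:28635929-28636078 on the minus strand (Rps7) and chr17:24727701-24727850 on the plus strand (the first of 2 Rpl3l entries).
Rplp0: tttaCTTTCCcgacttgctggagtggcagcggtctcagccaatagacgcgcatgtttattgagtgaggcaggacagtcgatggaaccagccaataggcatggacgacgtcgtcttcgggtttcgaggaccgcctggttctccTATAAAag
Rpl28: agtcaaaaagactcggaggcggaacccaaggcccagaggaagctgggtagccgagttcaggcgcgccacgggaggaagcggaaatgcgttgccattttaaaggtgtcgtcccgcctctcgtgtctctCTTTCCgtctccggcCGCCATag
Rps7: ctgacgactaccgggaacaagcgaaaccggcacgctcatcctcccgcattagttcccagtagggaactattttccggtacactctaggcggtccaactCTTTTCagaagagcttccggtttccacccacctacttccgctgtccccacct
Rpl3l: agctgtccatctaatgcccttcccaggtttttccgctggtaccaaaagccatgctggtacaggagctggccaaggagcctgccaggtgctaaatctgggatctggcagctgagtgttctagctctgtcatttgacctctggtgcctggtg
Rpl28 has a CTTTCC match next to its start, the position of the pyrimidine run of a TOP mRNA, and Rpl3l has no match in this stretch. Over the 300 bases, CTTTCC was in 48.0% of the members' entries and in 26.6% of all 32851 entries. The variant CTTTTC was in 25.3 against 21.8%. ATGGCG, the core of the Yy1 motif, was in 30.7 against 8.93%, CCGGAAGT, that of the Gabpa motif, in 14.7 against 3.89%, and GGGCGG, that of the Sp1 motif, in 58.7 against 35.7%. TATAAA was in 10.7 against 13.6%. No motif searched holds another whole. A match describes letters and not a bound site.

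Some ribosomal proteins have symbols of another form, and those described here had differences as small. Rpsa, Fau (a fusion with a ubiquitin-like protein) and Rack1 (a signalling scaffold on the small subunit) had log2 fold changes between -0.0468 and -0.0025, with none at an unadjusted p under 0.05.

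By edgeR, none of the genes listed for making ribosomes or for translation was called. Of the genes named here, DESeq2 called Castor2 and Larp4 of the mTORC1 list, described below. DESeq2 called 505 genes in all, 2.31% of those with an adjusted p. Its calls among the unnamed genes of these lists are not reported here. Of 48 ribosome biogenesis genes, 14 had positive and 34 negative log2 fold changes, with a median of -0.08 against 0.01 over all genes tested. At an unadjusted p under 0.05 was 1 of them, against 8.46% of all genes tested. That gene was Nop2, a methyltransferase of large subunit ribosomal RNA, at 13.9, 17.1 and 14.3 CPM with vehicle and 10.7, 13.2 and 10.6 CPM with setanaxib, with an edgeR adjusted p of 0.534. Rrp12, an export factor of ribosome precursors, was at 27.2, 40.8 and 27.5 against 24.5, 21.5 and 11.3 CPM, with the lowest value in setanaxib replicate 3. The summed level of the list was 716 to 847 CPM with vehicle and 813, 731 and 621 CPM with setanaxib. The split was 24 positive and 24 negative, with a median of -0.0024, without setanaxib replicate 3. Of the 28 genes tested for RNA polymerases I and III, which transcribe ribosomal RNA, 13 were positive and 15 negative, and 2 were at an unadjusted p under 0.05, Bdp1 and Polr3a, each lower in every setanaxib library. Bdp1, a part of the polymerase III initiation factor, stood at 36.3, 37.9 and 33.4 against 30.4, 31.9 and 27.4 CPM, with an edgeR adjusted p of 0.548. Of the 28, 15 were positive and 13 negative without setanaxib replicate 3.

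Among the 36 translation initiation factors, 18 were positive and 18 negative, with 0 at an unadjusted p under 0.05, against 8.46% of all genes tested. Without setanaxib replicate 3, 26 were positive and 10 negative. In that fit 3 (8.33%) were at that p, against 13.6% of the genes tested. Eif4h, a helper of the Eif4a helicase, had the smallest p, at 63.0, 69.4 and 68.8 CPM with vehicle and 81.1, 76.9 and 68.9 CPM with setanaxib. Among the 22 elongation factors and other TOP mRNAs, 12 were positive and 10 negative, with 0 at an unadjusted p under 0.05 and a median of 0.04. These were 16 and 6 without setanaxib replicate 3, with 2 (9.09%) at that p and a median of 0.10. Hnrnpa1, a splicing factor whose mRNA is of the TOP class, stood at 29.9, 29.4 and 28.5 against 44.1, 31.9 and 31.3 CPM, highest in setanaxib replicate 1.

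In the mTORC1 list, 19 of 27 were positive and 8 negative, with a median of 0.03. At an unadjusted p under 0.05 were 2 of them, against 8.46% of all genes tested. Without setanaxib replicate 3, 20 were positive and 7 negative. In that fit 5 genes (18.5%) were at that p, against 13.6% of the genes tested. Castor2, a relative of Castor1, the arginine sensor that restrains mTORC1, had the smallest p of the list. It stood at 36.3, 30.3 and 38.4 CPM with vehicle, against 47.8, 53.2 and 54.8 CPM with setanaxib, a log2 fold change of 0.57 (SE 0.12). Its adjusted p was 0.331 by edgeR and 0.00162 by DESeq2, and ranged from 0.00162 to 0.838 over the alternatives. Larp4, a poly(A)-binding protein that stabilises mRNAs of ribosomal proteins, stood at 65.8, 72.9 and 65.7 CPM with vehicle, against 58.4, 51.2 and 52.4 CPM with setanaxib, a log2 fold change of -0.34 (SE 0.09). Its adjusted p was 0.441 by edgeR and 0.0489 by DESeq2, and ranged from 0.0489 to 0.994 over the alternatives. The groups did not overlap in either gene, as in 17.6% of all genes tested. In the whole list of 27, they did not overlap for 2 genes lower and 1 higher with setanaxib.

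Of the 13 transcription regulators, 9 were positive and 4 negative, with 3 at an unadjusted p under 0.05, against 8.46% of all genes tested. Without setanaxib replicate 3, 8 were positive and 5 negative. In that fit 4 (30.8%) were at that p, against 13.6% of the genes tested. Mycn, of the Myc family that drives ribosome production, was at 5.38, 6.30 and 4.54 CPM with vehicle and 0.967, 3.05 and 2.60 CPM with setanaxib, a log2 fold change of -1.29 (SE 0.42). Max, the partner of the Myc proteins, was at 23.4, 23.2 and 29.9 against 31.7, 34.8 and 32.9 CPM. Zbtb10 was at 14.8, 15.9 and 15.2 against 17.6, 18.1 and 17.3 CPM. The edgeR adjusted p-values of these 3 genes lay between 0.490 and 0.588.

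The ribosome of the mitochondrion was set beside the cytosolic one. Its list holds every symbol that begins with Mrpl or Mrps and a number. Unlike the cytosolic list, it keeps -ps pseudogenes, such as Mrpl48-ps. Of the 82 genes of this list tested, 24 had positive and 58 negative log2 fold changes, with a median of -0.07. At an unadjusted p under 0.05 was 1 of them, against 8.46% of all genes tested. That gene, Mrpl39, stood at 27.3, 26.4 and 25.2 CPM with vehicle and 33.5, 38.7 and 28.8 CPM with setanaxib, with an edgeR adjusted p of 0.527. The list summed to 1678 to 1904 CPM with vehicle and to 1924, 1813 and 1358 CPM with setanaxib, so the low library was setanaxib replicate 3. Without that library the split turned to 60 positive and 22 negative, with a median of 0.07. In that fit 3 (3.66%) were at an unadjusted p under 0.05, against 13.6% of the genes tested. The nuclear subunits of the respiratory chain, 76 tested, had 45 positive and 31 negative values with a median of 0.02, and summed to 17068 to 18410 CPM with vehicle and 20528, 19621 and 14315 CPM with setanaxib. When setanaxib replicate 3 was left out, 75 of the 76 were positive, with a median of 0.17, and 29 (38.2%) were at an unadjusted p under 0.05 against 13.6% of the genes tested in that fit, with 0 called. The summed cytosolic ribosomal proteins of setanaxib replicate 3, at 6791 CPM, lay closer to the lowest vehicle library, at 6832 CPM.

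**Figure D5:**
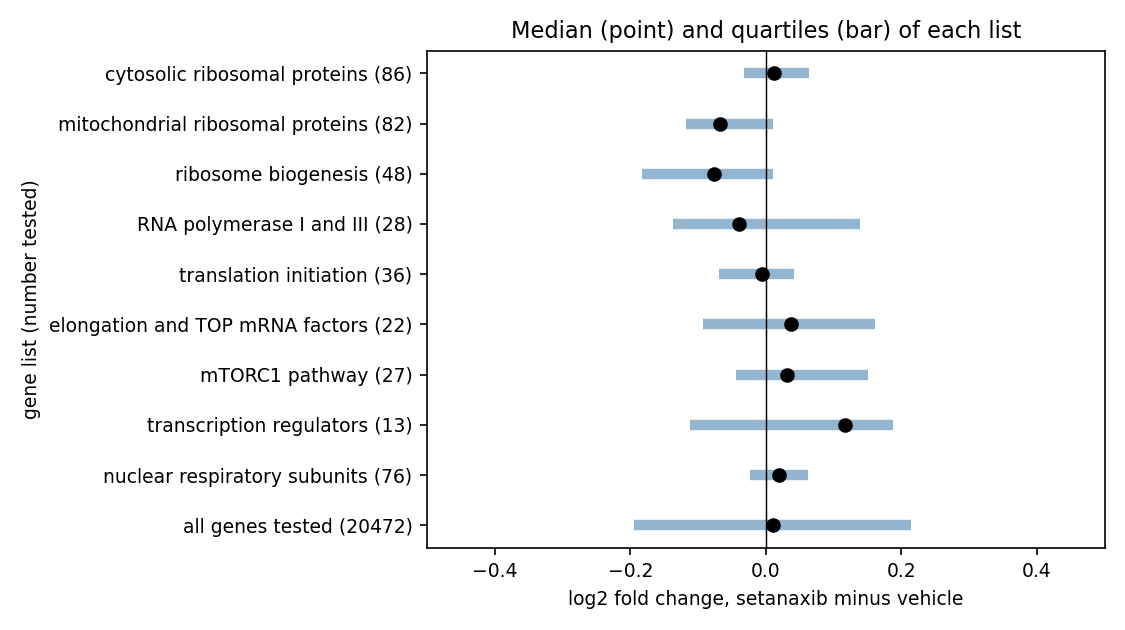
Median (point) and quartiles (bar) of the log2 fold change of setanaxib over vehicle (x axis) in each gene list (y axis, number of genes tested in brackets), with all genes tested in the last row. The cytosolic ribosomal proteins have a median of 0.01 and, with the nuclear respiratory subunits, lie close to zero, while all genes tested have the same median of 0.01 and wider quartiles.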

How the data were processed

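RNA was sequenced in 6 libraries of mouse heart, 3 per group, grouped by the treatment label and numbered in accession order. The authors deposited an expected count (estimated count) per gene and library, already whole and unscaled, so no rounding was needed before the count test. The submitters' processing notes list the build GRCm39, DESeq2 1.42.0, featureCounts 2.0.1, STAR 2.5.4b and FastQC 0.11.9, with no role for each. Per the file headers, the names have the form of StringTie's count script, which those notes do not name. The planned test had assumed raw counts, and it was kept for these estimates. Strand and the treatment of shared reads are not given in the sources used here.

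Genes were kept by edgeR's filterByExpr with a minimum count of 10, scaled by TMM (factors 0.892 to 1.19) and tested, two-sided, with edgeR 4.0.16 (quasi-likelihood F test, R 4.3.3) over all 20472 genes that passed, at a Benjamini-Hochberg adjusted threshold of 0.05. The SE is the log2 fold change over the root of F. DESeq2 1.42.0, limma-voom (limma 3.58.1), other scalings, no filter and leaving out each library were alternatives. Shares within pairs were tested by exact permutation (scipy 1.17.1). The fit was tested on simulated data. At 110803307 to 154003318 counts a library, every core gene had at least 444 counts in each library. The labels mention no molecular identifiers, and limits from counts of 0 cover counting error only.

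The members and lists were chosen with earlier results of these data known. Genes named are all paralog pairs, the 6 members with the smallest p in each direction, the stalk proteins, the 5 with the highest mean CPM, 10 with known further roles, members not tested, up to 3 genes of each pathway list by smallest p, and Eef1a1 and Eef1a2. Not every gene this names is reported here. Window sharing and the alternatives built on it, the counts of each list without setanaxib replicate 3, the split into core genes and copies, and the promoters shown were chosen after the values were seen. Transcripts came from GENCODE vM21 (GRCm38), another build than the counts, and were matched by Ensembl ID for all 88 members. Coding sequences were aligned in place of proteins.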

Additional observations from a re-analysis of the deposited data

How the results depend on the processing

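No paired analysis was possible because the labels give the groups no shared replicate numbers. The count of ribosomal protein genes called was 0 under every alternative run, and their median log2 fold change was between 0.0075 and 0.040 under the other tools, scalings and filter, and between -0.02 and 0.05 when 1 library was left out. The split of signs moved with single libraries, from 28 positive and 58 negative without setanaxib replicate 1 to 66 and 20 without vehicle replicate 2. Without setanaxib replicate 3, 3 members were at an unadjusted p under 0.05 (Rps7, Rpl3 and Rpl3l). With total counts alone, Rpl10 (0.025), Rpl36al (0.010), Rplp1 (0.023) and Rpl11 (0.0047) turned positive. Leaving out 1 library turned the sign of 16 of the genes named. Their log2 fold changes ranged from -0.29 to 0.030 for Rpl3, -0.036 to 0.42 for Rpl3l, -0.070 to 0.032 for Rpl10, -0.020 to 0.13 for Rpl36a, -0.10 to 0.13 for Rpl36al, -0.022 to 0.0036 for Rplp1, -0.014 to 0.093 for Rplp2, -0.027 to 0.18 for Rps2, -0.0078 to 0.071 for Rpl5, -0.061 to 0.037 for Rpl11, -0.016 to 0.11 for Rps6, -0.043 to 0.093 for Rpl13a, -0.12 to 0.0063 for Rpl38, -0.023 to 0.088 for Rps25, -0.082 to 0.0074 for Rack1 and -0.18 to 0.34 for Eef1a1. The difference in the Rpl3l share ranged from -1.03 to 11.7 percentage points, and the difference in the summed share of the members from -0.03 to 0.04 points, against 0.0158 over all libraries. DESeq2 called 505 genes in all, 2.31% of those with an adjusted p. Of the genes named, it called Castor2 at 0.56 (adjusted p of 0.00162) and Larp4 at -0.34 (adjusted p of 0.0489), which edgeR did not. The cause of these changes was not tested. Depth left every core gene at least 444 counts in each library, and with 3 libraries a group an exact permutation p cannot go under 0.1.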
